A study of Drosophila melanogaster with 8 samples.

Results

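Gene expression in fly heads was compared between wild-type Eyes absent (EYA), made from a heat-inducible transgene, and 2 phosphatase-mutant forms of the same protein. The comparison uses 6 of the 8 arrays of the series, chosen by their titles: 2 of EYA-Wildtype, 2 of EYA-D493N and 2 of EYA-E728Q. The difference reported is the wild-type mean minus the average of the D493N mean and the E728Q mean, so that each mutant counts equally. All 3 groups carried the heat-shock driver Hsp-GAL4 together with 1 UAS-EYA transgene. The remaining 2 arrays are control flies of the w1118 strain, with neither driver nor transgene. They give a reference level, carry no weight in the difference, and add to the shared estimate of the spread in the fit. Adult males and females of every group received a heat shock of 1 h at 37 C, followed by 3 h of recovery at 25 C. RNA came from 200 heads, taken as 4 lots of 50. The labels describe D493N as reducing the phosphatase activity and E728Q as leaving little if any. They give no insertion site and no number of fly lines per transgene, so the form of EYA and the line that carried it cannot be told apart. They also do not say that the 2 samples of a group were raised separately. The p-values therefore measure the spread between these samples, which may be technical.

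Eyes absent is a transcriptional coactivator that lacks a DNA-binding domain of its own and is brought to its target genes by the homeodomain protein Sine oculis (So). It belongs to the network of genes that specify the fly eye, together with twin of eyeless (toy), eyeless (ey) and dachshund (dac). The same protein carries a phosphatase domain of the haloacid dehalogenase family that acts on phosphotyrosine. The comparison asks which head transcripts differ when the phosphatase domain is altered while the rest of the protein is kept.

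Signals are the deposited array values, in which each array has a median of 100, and are given as replicate 1 and replicate 2 of a group. The 2 replicates of a group differed most in the D493N group, where the SD of their log2 difference was 0.393, against 0.318 for E728Q and 0.275 for wild-type EYA. As a check of RNA integrity, the signal at the 3' end of the Act5C transcript was divided by that at its 5' end. This ratio was 4.28 and 4.35 with wild-type EYA, against 4.84 to 6.26 on the 4 mutant arrays and 4.15 to 4.29 in control. The same ratio overlapped between wild type and mutants for the translation factor gene eIF4A (2.89 to 3.23 against 2.80 to 4.05) and for the gene of the glycolytic enzyme GAPDH (1.72 to 1.97 against 1.94 to 2.05). In the control probe sets for 18S ribosomal RNA, D493N replicate 1 stood apart, with a 5' signal of 5619 and a 3' signal of 11249, against at most 2196 and 5524 elsewhere. The part of these differences in the results was not tested. Head tissue was recognisable on every array. The photoreceptor markers trp, inaD and gl summed to 25891 to 26770 with wild-type EYA and to 23089 to 32077 with the mutants, and the neuronal markers elav, nSyb and brp to 4791 to 5479 and 5048 to 6066. In RNA from whole heads, fewer cells of a type and less RNA per cell cannot be told apart.

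Of 11261 probe sets tested, 135 (1.2%) differed between wild-type EYA and the pooled mutants at an adjusted p under 0.05 in limma. Of these, 71 (0.63%) were higher with wild-type EYA and 64 (0.568%) lower, and 30 differed at least 2-fold, 16 upwards and 14 downwards. Counted as genes with 1 probe set each, 54 of 8660 (0.624%) were higher and 55 (0.635%) lower. The median size of the called differences was 0.65 on the log2 scale, and the median over all tested probe sets was -0.011. In 130 of the 135, the wild-type signals lay outside all 4 mutant signals, which was also the case for 2739 (24.3%) of all tested probe sets. The direction was the same against each mutant alone in 133 of 135. There were 47 probe sets called against each mutant alone, 19 higher and 28 lower, 39 called only against D493N, 19 only against E728Q and 30 against neither. These separate comparisons share the wild-type arrays, and the pooled difference is their mean. The shared direction and the calls against each mutant were thus largely built in and are no separate support. A call against 1 mutant alone does not show that the mutants differ. Against D493N alone 131 probe sets (1.16%) were called, and against E728Q alone 79 (0.702%).

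**Figure D1:**
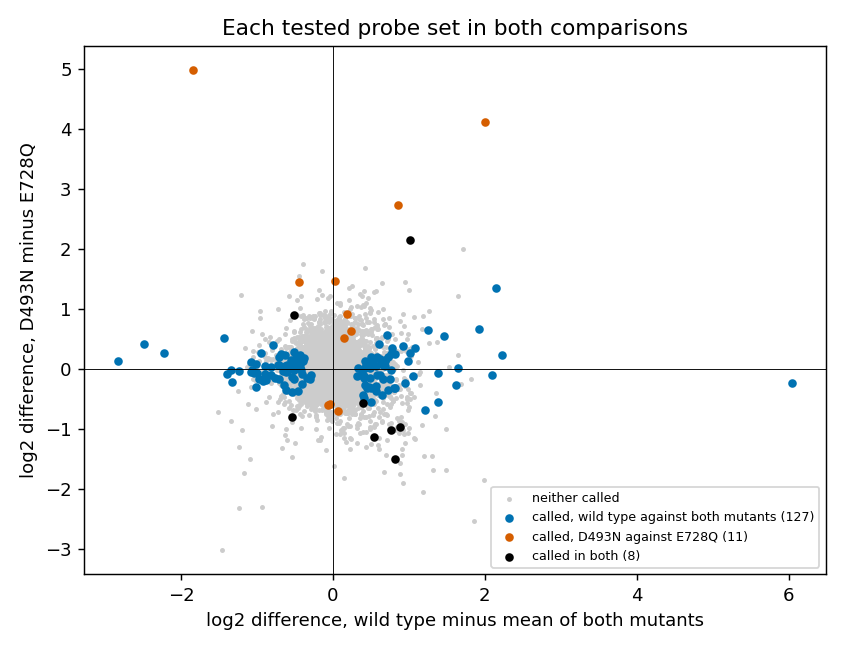
Each point is 1 of the 11261 tested probe sets, with the log2 difference of wild-type EYA minus the mean of both mutants on the x axis and of D493N minus E728Q on the y axis. The 127 probe sets called in the pooled comparison only lie mostly near 0 on the y axis, 11 were called only between the mutants, and 8 in both.

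The number of calls depended on single arrays. Leaving out wild-type replicate 1 or replicate 2 left 15 or 14 calls, E728Q replicate 1 or replicate 2 left 64 or 58, and control replicate 1 or replicate 2 left 67 or 68. Leaving out either D493N array raised the count, and more so for replicate 2 than for replicate 1. Replicate 1 stood apart in the 18S controls, and replicate 2 had the highest end ratios of Act5C (6.26) and eIF4A (4.05). The part of these array differences in the counts was not tested. The number of probe sets called whichever array was left out was 11, and they include gol, LanA, Cyp6a2, Ctr9, SPARC, amon, Tsp97E, Lerp and CG5500. Of the 41 named genes that were called, 8 were called without wild-type replicate 1 and 9 without replicate 2. Without either E728Q array 30 were called, without either control array 31 and without either D493N array all 41. The calls lost without an E728Q or a control array were those of CG34217, Lmpt, heix, htl, Cyp28a5, Ugt36E1, Ugt301D1, Obp56a, Nmdmc, Ance-3, mthl8, fon and Ets97D, with adjusted p up to 0.153. Without quantile normalization 120 probe sets were called, with 41 higher and 79 lower, so the near-even split of 71 and 64 rests on the normalization. On the unnormalized values the median over all tested probe sets was -0.073.

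**Figure D2:**
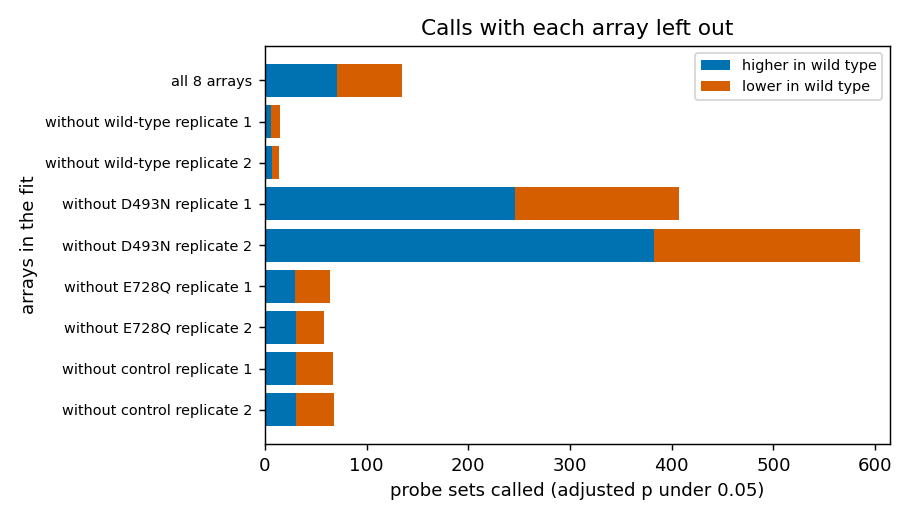
Bars give the number of probe sets called with all 8 arrays and with each array left out in turn, split into those higher and those lower with wild-type EYA. The count runs from 14 without wild-type replicate 2 to 585 without D493N replicate 2.

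The control level divides the called probe sets into 5 kinds. On the line from the mutant mean (0) to the wild-type mean (1), the control mean lay within 0.25 of the mutants for 21 of 135 (15.6%) and within 0.25 of wild type for 21 (15.6%). Over all tested probe sets these shares were 7.94% and 7.81%. For 19 (14.1%, beside 9.08% of all tested) the control lay between. It lay beyond the mutants for 29 (21.5%, beside 35.8%) and beyond wild type for 45 (33.3%, beside 39.4%). The shares of calls and of all tested probe sets cannot be compared as a result. The position is divided by the difference between wild type and mutants, which is large in calls by selection. Where that difference is near 0, the control mostly falls beyond either end. For calls with the control beyond either end, wild-type EYA and the mutant mean lay on the same side of control and differed in how far. The control mean enters the position but not the test, and its own spread was not taken into account.

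Among genes whose control level lay near that of the mutants, gol, LanA and Cyp6a2 had the largest increases with wild-type EYA. The gene gol (goliath) encodes a RING-finger ubiquitin ligase. It was chosen after its values were seen, because its most abundant probe set is another one. On the called probe set its signals were 1753 and 1686 in the wild-type group, 15.5 and 2.21 with D493N, 8.58 and 16.1 with E728Q and 14.1 and 2.89 in control. The probe set was thus near the bottom of the scale on 6 arrays and bright on both wild-type arrays. The filter took the mean over all 8 arrays, so only its wild-type signals brought this probe set into the test. Its log2 difference was 6.04 (SE 0.29, limma adjusted p = 4.81e-05) and ran from 4.64 to 7.55 over the alternatives, since its size depends on the pseudocount. The other probe set of gol had 1749 and 1863 in the wild-type group, 1645 and 2432 with D493N and 2263 to 2579 with E728Q. It was bright in every group and was not called (-0.20, adjusted p = 0.61), so the 2 probe sets of this gene disagree.

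LanA, the alpha chain of laminin in basement membranes, had signals of 2999 and 2699 in the wild-type group, 563 and 796 with D493N, 811 and 623 with E728Q and 940 and 952 in control. Both wild-type arrays were above every other array, and the log2 difference was 2.10 (SE 0.15, adjusted p = 0.000333), or 4.29-fold. Cyp6a2, a cytochrome P450 linked to insecticide metabolism, had 1458 and 1141 in the wild-type group, 449 and 335 with D493N, 479 and 458 with E728Q and 539 in both control arrays. Its groups did not overlap either, and it was 3.08-fold higher (1.62, SE 0.12, adjusted p = 0.000672). LanA, Cyp6a2 and this probe set of gol were called whichever array was left out. A smaller difference of the same kind was found for Ance-3, a relative of angiotensin-converting enzyme (0.57, adjusted p = 0.0183), on its most abundant probe set. Its other probe set gave 0.42, was not called (adjusted p = 0.0904) and had its control level near wild type. Pepck2, a phosphoenolpyruvate carboxykinase (0.73, adjusted p = 0.048), and ltl, a secreted leucine-rich repeat protein (0.72, adjusted p = 0.0196), were chosen after their values were seen. With only 1 wild-type array the adjusted p of these 3 genes lay between 0.15 and 0.361.

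Genes lower with wild-type EYA and with the control near the mutants included SPARC, His2Av, scrib, Tsp97E, amon and Lerp. SPARC, a collagen-binding glycoprotein of basement membranes, had signals of 2679 and 2271 in the wild-type group, 7069 and 6278 with D493N, 6373 and 6781 with E728Q and 7633 and 6996 in control. Both wild-type signals were less than those of every other array, and the log2 difference was -1.34 (SE 0.09, adjusted p = 0.000215). Tsp97E, a tetraspanin, had 1453 and 1403 in the wild-type group, 2908 and 3382 with D493N, 3164 and 3109 with E728Q and 3568 and 3521 in control (-1.06, SE 0.07, adjusted p = 0.000195). The wild-type arrays were again the lowest of all 8. His2Av, the H2A variant histone of the fly, had 953 and 1058 with wild-type EYA against 2096 to 2954 on the mutant arrays and 2104 and 2056 in control (-1.24, SE 0.14, adjusted p = 0.00391). The prohormone convertase gene amon had 1894 and 1871 with wild-type EYA against 3675 to 4763 with the mutants and 3855 and 3814 in control (-1.01, adjusted p = 0.00121). These genes all lie on chromosome arm 3R, in a stretch described below. Outside that stretch, wnd, a kinase of the axonal stress pathway, was lower by -0.59 (adjusted p = 0.00575). The Pax gene sv, which acts in cone cells of the eye, was lower by -0.62 (adjusted p = 0.0485). Both were chosen after their values were seen. With 1 wild-type array the adjusted p was 0.104 or 0.0613 for His2Av, 0.0789 or 0.136 for wnd and 0.26 or 0.408 for sv.

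**Figure D3:**
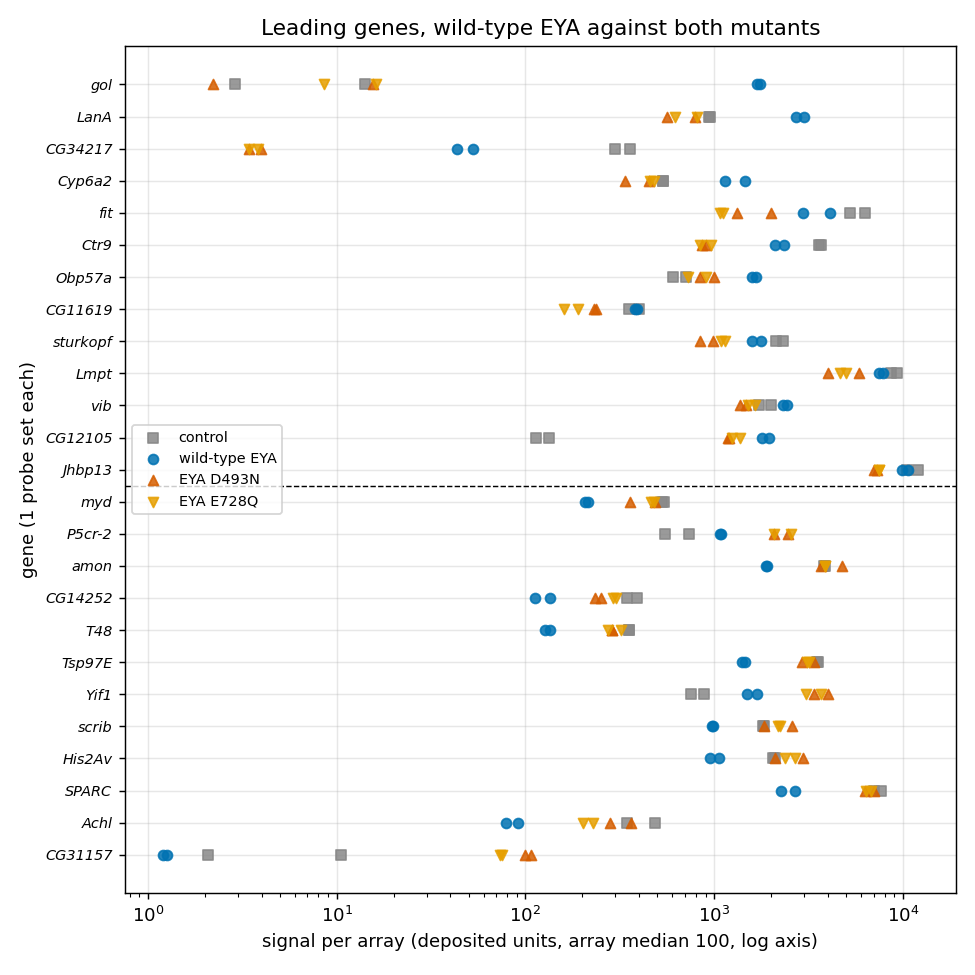
Signals on all 8 arrays, on a log axis, for the 12 genes with the largest difference in each direction that met the naming rule, with gol added at the top. Genes above the dashed line were higher with wild-type EYA and genes under it lower. The naming rule required that the 2 wild-type points lie outside all 4 mutant points, and those of gol do so too. Grey squares show where the control lay.

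In a further set the mutants departed from control while wild-type EYA lay near it. CG31157 had signals of 1.26 and 1.20 with wild-type EYA, 72.9 to 107 on the 4 mutant arrays and 10.6 and 2.07 in control. It was near the bottom of the scale on the wild-type and control arrays and measurable on all 4 mutant arrays. Only its mutant signals brought it past the filter on the mean over all arrays. The log2 difference was -2.48 (adjusted p = 0.00596) and ran from -5.28 to -1.22 over the alternatives, since it too depends on the pseudocount. Hsc70-2, a member of the Hsp70 chaperone family that was chosen after its values were seen, is the next tested gene to it on arm 3R. It had 7.98 and 36.3 in the wild-type group, 224 and 314 with D493N, 222 and 256 with E728Q and 48.6 and 4.13 in control (-2.83, SE 0.45, adjusted p = 0.0259). Here too the 4 mutant arrays were all higher than both wild-type and both control arrays, and only they brought Hsc70-2 past the filter.

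CG11619 had 380 and 388 in the wild-type group, 237 and 230 with D493N, 160 and 191 with E728Q and 353 and 400 in control (0.92, SE 0.12, adjusted p = 0.00766). The 4 mutant signals were the lowest of the 8. Jhbp13, a member of the juvenile hormone-binding protein family, was higher by 0.58 (SE 0.05, adjusted p = 0.00188), with 10655 and 9840 with wild-type EYA, 7027 to 7473 on the mutant arrays and 11989 and 10519 in control. Lmpt, a LIM-domain protein of muscle, was higher by 0.77 (adjusted p = 0.0184) on its most abundant probe set. Its other 2 probe sets gave -0.04 and 0.08 and were not called. The muscle markers Act88F and up summed to 6629 to 7587 with wild-type EYA and to 3580 to 8015 with the mutants, and their part in the Lmpt result was not tested. Of genes chosen after their values were seen, dlp, a cell-surface glypican, was lower by -0.43 (adjusted p = 0.0346), and the receptor tyrosine phosphatase gene Ptp99A was lower by -0.61 (adjusted p = 0.0471) on 1 of its 5 probe sets. With only 1 wild-type array, the adjusted p of CG31157, Hsc70-2, CG11619, Jhbp13, Lmpt, dlp and Ptp99A lay between 0.0605 and 0.361.

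For Ctr9, CG34217, fit and sturkopf every EYA group lay below control and the mutants farthest from it. Ctr9, which had the lowest adjusted p of these, is a subunit of the Paf1 complex, which travels with elongating RNA polymerase II. Its signals were 2354 and 2093 in the wild-type group, 857 and 908 with D493N, 964 and 838 with E728Q and 3672 and 3592 in control. The levels fell into 3 separate ranges, control highest and mutants lowest, and the log2 difference between wild type and mutants was 1.38 (SE 0.08, adjusted p = 9.52e-05). The gene fit, which encodes a secreted satiety protein of the fat body, had 4133 and 2968 in the wild-type group, 1997 and 1321 with D493N, 1109 and 1073 with E728Q and 6281 and 5272 in control. It had the same order of levels and was higher by 1.47 (SE 0.16, adjusted p = 0.00359). CG34217 had 52.9 and 43.4 with wild-type EYA, 3.43 to 3.98 on all 4 mutant arrays and 359 and 299 in control. Its difference of 1.65 (adjusted p = 0.0215) ran from 0.74 to 3.43 over the alternatives. CG34217 passed the filter on mean signal only through its control arrays. The lipid-droplet gene sturkopf, the next tested gene to Ctr9 on arm 3L, was higher by 0.80 (adjusted p = 0.003). Ctr9 was called whichever array was left out. Without wild-type replicate 1 the adjusted p was 0.0799 for fit, 0.263 for CG34217 and 0.0789 for sturkopf, and without replicate 2 it was 0.0394, 0.208 and 0.0613.

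The same order with the opposite sign, lowest in control and highest in the mutants, was found for Yif1, P5cr-2 and mthl8. Yif1, a homologue of a yeast protein of transport between the endoplasmic reticulum and the Golgi, had 1679 and 1487 in the wild-type group, 4019 and 3383 with D493N, 3075 and 3664 with E728Q and 886 and 753 in control (-1.08, SE 0.11, adjusted p = 0.00292). P5cr-2, an enzyme of proline synthesis, had 1082 and 1076 with wild-type EYA against 2068 to 2568 on the mutant arrays and 738 and 548 in control (-0.99, adjusted p = 0.0081). The receptor gene mthl8 had 455 and 400 with wild-type EYA, 700 to 785 on the mutant arrays and 4.86 and 6.20 in control (-0.72, adjusted p = 0.0146), and its second probe set was also called. The wild-type signals of all 3 genes lay between those of control and of the mutants. Aprt, an enzyme of purine salvage, and the kinase gene Sik3, both chosen after their values were seen, had the same order, with differences of -0.94 (adjusted p = 0.012) and -0.63 (adjusted p = 0.0382). In fits with 1 wild-type array these 5 genes had an adjusted p between 0.0605 and 0.338.

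In other genes wild-type EYA lay farther from control than the mutants did. Achl had 79.0 and 90.8 in the wild-type group, 364 and 281 with D493N, 229 and 203 with E728Q and 487 and 346 in control (-1.43, SE 0.16, adjusted p = 0.00343). CG12105 had 1957 and 1794 with wild-type EYA, 1187 to 1376 on the mutant arrays and 133 and 114 in control (0.66, SE 0.08, adjusted p = 0.00766). Obp57a, an odorant-binding protein, had 1665 and 1588 with wild-type EYA, 723 to 993 on the mutant arrays and 707 and 607 in control (0.98, SE 0.11, adjusted p = 0.00324). Wild-type and mutant signals did not overlap for any of these genes, which was a condition for naming them. The mitochondrial folate enzyme gene Nmdmc was also of this kind, with a difference of -0.53 (adjusted p = 0.048), as was myd with -0.97 (adjusted p = 0.0076). So were the following genes, chosen after their values were seen. The chitinase-like growth factor gene Idgf3 differed by -0.71 (adjusted p = 0.00482), the glucose dehydrogenase gene Gld by -0.55 (adjusted p = 0.0443) and the extracellular superoxide dismutase gene Sod3, on 1 of its 2 probe sets, by 1.38 (adjusted p = 0.0224). The other probe set of Sod3 gave 0.06 and was not called. In fits with 1 wild-type array the 8 genes had an adjusted p between 0.0613 and 0.409. The phosphatidylinositol transfer protein gene vib, whose control level of 1994 and 1738 lay between, had 2429 and 2330 with wild-type EYA and 1373 to 1636 on the mutant arrays (0.75, SE 0.07, adjusted p = 0.00238). Its adjusted p was 0.0626 or 0.0627 with 1 wild-type array.

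Genes called lower lay close together on chromosome arm 3R. Of 22 tested genes from scrib to Tsp97E, in the order of the current annotation, 15 were called lower (68.2%) and 0 higher. The ends of the stretch are called genes chosen after their values were seen, so these counts describe it and test nothing. Of the 7 others 6 were below 0. On the rest of 3R, 14 of 2125 tested genes were called lower (0.659%) and 13 higher, so this stretch held 27.3% of all genes called lower in the genome. The median difference of the 15 genes was -1.01, a 2.02-fold lower level, and their range was -1.34 to -0.61. The 10 tested genes before scrib ran from -0.28 to 0.34 and the 10 after Tsp97E from -0.57 to 1.19, with no call among them. The longest run without an uncalled gene held His2Av, SPARC, Rb97D, CG5500, T48 and Ets97D.

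The 15 genes have varied roles. The polarity scaffold gene scrib had 977 and 987 in the wild-type group, 1841 and 2581 with D493N, 2233 and 2176 with E728Q and 1836 and 1823 in control (-1.08, SE 0.11, adjusted p = 0.003), and its 5 probe sets were all below 0. The membrane protein gene T48, which acts in the folding of the embryonic mesoderm, had 127 and 135 with wild-type EYA, 273 to 319 on the mutant arrays and 352 in both control arrays (-1.04, adjusted p = 0.003). The receptor gene Tl (Toll) of the immune and dorsoventral pathway had 1108 and 1055 with wild-type EYA against 1774 to 2093 on the mutant arrays and 2600 and 2043 in control (-0.77, adjusted p = 0.003). In each of the 3 the wild-type arrays were the lowest of all 8. Lerp, a sorting receptor for lysosomal enzymes, was lower by -0.90 (adjusted p = 0.000914). The RNA-binding protein gene Rb97D was lower by -0.61 (adjusted p = 0.00884) and the ETS transcription factor gene Ets97D by -0.64 (adjusted p = 0.048). CG5500 was lower by -0.88, CG14252 by -1.02, CG6330 by -0.82 and CG6420 by -0.73, the last 2 chosen after their values were seen.

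Over the 15 genes the median difference of wild-type EYA from control was -0.94, while that of the mutants from control was 0.07. Yif1, which lies in the stretch, was the exception among the 15, being higher than control in all EYA groups. Without wild-type replicate 1 or replicate 2, 6 or 5 genes of the stretch were called, and with either D493N array left out 16 were. Over the other alternatives the count ran from 12 to 16. Shorter runs of neighbouring tested genes were found for Hsc70-2, CG31157 and CG7966 on 3R, all lower, and for the pairs Ctr9 and sturkopf, and CG15879 and CG5704, on 3L, all higher. By arm, 1.96% of the tested genes of 3R were called, 1.42% of 2L, 1.24% of 3L, 0.964% of 2R, 0.353% of X and 1.54% of chromosome 4, which is 1 of 65 genes.

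**Figure D4:**
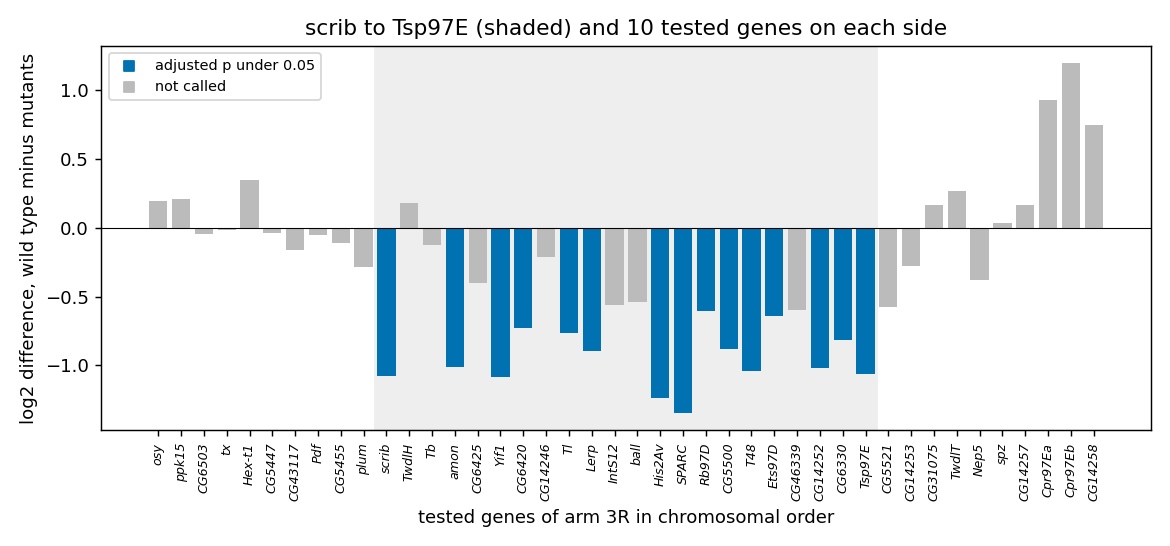
Bars give the log2 difference of wild-type EYA minus the mutants for neighbouring tested genes of arm 3R in chromosomal order, with the stretch from scrib to Tsp97E shaded and called genes in blue. In the shaded stretch 15 of 22 genes are called, all lower, while none of the 10 genes on either side is.

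Among 29 lists of pathways and gene families, 9 held a called gene, beside 1.26% of all tested genes called. The lists held 1 to 74 measured genes, so at that share many would hold 0 or 1 call. Neither the 9 nor a list without a call is a result by itself. The retinal determination list, which includes eya, had 0 of 21 genes called, beside 1.26% of all 8660 genes. Its median was -0.02, beside -0.01 over all 8660 genes. The lowest adjusted p in it was that of eya, whose signals were 916 and 915 in the wild-type group, 1240 and 1554 with D493N, 1386 and 1140 with E728Q and 991 and 918 in control. All 4 mutant arrays were higher than both wild-type and both control arrays, but the difference of -0.45 (SE 0.11, adjusted p = 0.0978) was not called. It passed the threshold without D493N replicate 1 (adjusted p = 0.0164) or D493N replicate 2 (0.0461). The sources used here do not say whether this probe set reads the transgene. Its values therefore do not show whether the 3 transgenes were induced equally, and differences in transgene level cannot be told apart from differences in the form of EYA.

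The partner genes of EYA overlapped between the groups. The DNA-binding partner so had 431 and 433 with wild-type EYA and 379 to 488 on the mutant arrays (0.08, SE 0.12, adjusted p = 0.861). The nuclear factor gene dac had 681 and 620 with wild-type EYA and 553 to 767 on the mutant arrays (0.13, SE 0.14, adjusted p = 0.794). The Pax6 genes toy and ey had adjusted p = 0.995 and 0.711. No call was made either among 20 phototransduction genes (median 0.00), 15 eye pigment genes (-0.09), 17 genes of the EGF receptor and MAP kinase pathway (-0.02) or 11 of Notch signalling (-0.04). At unadjusted p under 0.05, the retinal determination list held 3 genes, phototransduction 3, eye pigment 4, the EGF receptor pathway 2 and Notch 1, and 1093 of all 8660 genes passed that threshold. Of 24 tyrosine kinase and phosphatase genes 1 was called, beside 109 of all 8660 genes (1.26%). It was htl, a fibroblast growth factor receptor gene. Its signals were 529 and 502 in the wild-type group, 769 and 736 with D493N, 669 in both E728Q arrays and 618 and 573 in control (-0.39, adjusted p = 0.0471). With 1 wild-type array left, its adjusted p was 0.317 or 0.371.

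Proteasome subunit genes shared a direction without passing the test. All 26 measured genes had differences above 0, beside 3993 of all 8660 genes. Their median was 0.22 and their range 0.07 to 0.37. An unadjusted p under 0.05 was found for 20, beside 1093 of all 8660 genes, but 0 were called. The lowest adjusted p was that of Rpt2, an ATPase of the regulatory particle. It had 2018 and 2092 in the wild-type group, 1672 and 1705 with D493N, 1817 and 1799 with E728Q and 2818 and 2428 in control (0.32, SE 0.07, adjusted p = 0.0644). Rpn3, a lid subunit, had 2538 and 2667 with wild-type EYA and 2161 to 2287 on the mutant arrays (0.31, adjusted p = 0.0674). For both, the wild-type signals lay between those of the mutants and of control. In 24 of the 26 genes control had the highest mean of control, wild type and pooled mutants. The wild-type mean was above both mutant means in 23. Wild-type and mutant signals did not overlap for 15 of the 26, beside 24.3% of all tested probe sets. The Act5C end ratio was also higher on every mutant array than on the wild-type arrays, and its part in this shift was not tested. Both genes passed the threshold without either D493N array, at 0.022 to 0.0299, and Rpt2 and Rpn3 were chosen after their values were seen.

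**Figure D5:**
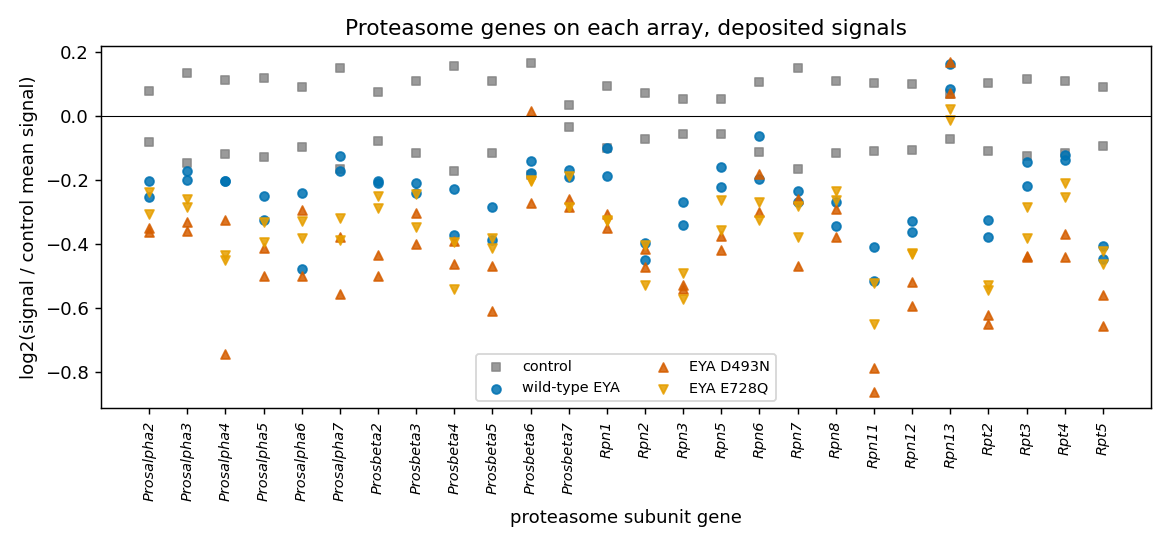
Each point is the deposited signal of 1 array relative to the control mean of that gene, on a log2 scale, for the 26 measured proteasome genes. Wild-type points lie above most mutant points and under most control points, and the sizes are small, with a median difference between wild type and mutants of 0.22.

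In 2 of the detoxification families a few genes were called, all higher with wild-type EYA, beside 0.624% of all genes called higher and 0.635% called lower. Of 74 cytochrome P450 genes 3 were higher with wild-type EYA and 0 lower (median 0.02), namely Cyp6a2, Cyp6g1 and Cyp28a5. Of 17 UDP-glycosyltransferase genes 3 were higher and 0 lower (median 0.10), namely Ugt35C1, Ugt36E1 and Ugt301D1. Ugt36E1 had 484 and 433 in the wild-type group, 283 and 309 with D493N, 302 and 260 with E728Q and 94.0 and 95.5 in control (0.68, SE 0.11, adjusted p = 0.0294). All wild-type signals of Ugt36E1 were above those of the mutants, which were above control. Ugt301D1 differed by 0.45 (adjusted p = 0.0485). None of 31 glutathione transferase genes was called (median 0.06), with 5 at unadjusted p under 0.05. Of 31 odorant-binding protein genes 2 were higher and 0 lower (median 0.12), Obp57a and Obp56a. Obp56a had 890 and 921 in the wild-type group, 446 and 503 with D493N, 698 and 500 with E728Q and 1362 and 1378 in control (0.82, adjusted p = 0.0227). Unlike Obp57a, it was highest in control. When either wild-type array was left out, Cyp6a2 was still called. Cyp6g1 had an adjusted p of 0.0740 without replicate 1 and 0.0349 without replicate 2, and the other 6 genes had values between 0.0789 and 0.359.

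Of 14 basement membrane genes measured, LanA was called higher, SPARC, which lies in the 3R stretch, was called lower and 12 were not called, with a median of 0.09. Each of the following 4 lists held a single call, beside 109 calls in all 8660 genes (1.26%). The immune list had 1 call in 31 genes, Tl in the 3R stretch, and its median was 0.13, with 23 genes above 0 beside 3993 of all 8660. Listericin, which was called higher (0.32), is not in that list. Purine and folate enzymes had 1 call in 11, Nmdmc (median -0.01), and that list does not hold the purine salvage gene Aprt, called lower (-0.94). Among neprilysin and Ance metallopeptidases 1 of 26 was called, Ance-3 (median -0.03), and among methuselah-like receptors 1 of 9, mthl8 (median -0.09). Chaperones of the endoplasmic reticulum and genes of the unfolded protein response had 0 of 16 called, with 14 below 0, a median of -0.11 and 6 at unadjusted p under 0.05. The list of cytosolic heat-shock chaperones, known for their induction by heat, had 0 of 10 called, a median of -0.02 and 0 at unadjusted p under 0.05. It does not hold Hsc70-2 of the Hsp70 family, which was called lower (-2.83). Clock genes had 0 of 14 called, with 4 at unadjusted p under 0.05, and the lowest adjusted p was 0.0594 for Pdp1. Medians of the 35 cytosolic and the 71 mitochondrial ribosomal protein genes were both -0.02, that of 61 respiratory chain genes was 0.05, and none of these genes was called.

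Markers of other cell types in the head were examined beside these results. Of 8 fat body markers 2 were called, fit and fon, both higher with wild-type EYA, beside 1.26% of all genes called. The median of the 8 was 0.03, with 4 above 0 and 4 below it, the lowest at -0.28. The clotting protein gene fon had 4657 and 3827 in the wild-type group, 3269 and 2929 with D493N, 2960 and 2975 with E728Q and 9668 and 8510 in control (0.57, SE 0.08, adjusted p = 0.0149). The yolk protein genes Yp1, Yp2 and Yp3, expressed in the female fat body, were not called (-0.01, 0.16 and 0.07), and the summed level of the 8 markers overlapped, at 90933 to 105871 with wild-type EYA and 96389 to 120573 with the mutants. The glial markers repo, alrm and nrv2 summed to 7555 and 7826 with wild-type EYA, under the 9255 to 9898 of the mutant arrays and the 10032 and 10634 of control. The pump subunit gene nrv2 accounted for most of that sum and differed by -0.42 (adjusted p = 0.113), while the glial master gene repo differed by 0.03. The midgut markers alphaTry, betaTry and Mal-A1 summed to 158 and 164 with wild-type EYA and to 188 to 773 with the mutants. None of the glial or midgut markers was called, and the part of these tissues in the results was not tested. Without wild-type replicate 1 or 2, fon had an adjusted p of 0.234 or 0.0834.

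For some genes the mutants did not stand for each other. Between D493N and E728Q 19 probe sets (0.169%) were called, 8 of them also in the pooled comparison. Cyp6g1, a P450 known from DDT resistance, had 1584 and 1346 in the wild-type group, 551 and 632 with D493N, 1176 and 1139 with E728Q and 2844 and 2791 in control. It was higher with wild-type EYA by 0.88 in the pooled comparison (adjusted p = 0.00263), by 1.37 against D493N and by 0.39 against E728Q, the last not called (adjusted p = 0.155). Ugt35C1 had 365 and 330 in the wild-type group, 145 and 127 with D493N, 283 and 305 with E728Q and 1803 and 1605 in control (0.77, adjusted p = 0.00738). Its difference was 1.28 against D493N and 0.26 against E728Q, the last not called (adjusted p = 0.47). Both genes had their lowest signals with D493N.

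Cyp28a5 had 3091 and 2745 in the wild-type group, 1637 and 1256 with D493N and 3196 and 3031 with E728Q. Wild-type and E728Q signals overlapped, and its pooled difference of 0.54 (adjusted p = 0.0445) consisted of 1.11 against D493N and -0.03 against E728Q. CG14275 had 1888 and 1746 in the wild-type group, 2045 and 2268 with D493N, 3609 and 3763 with E728Q and 1952 and 1796 in control (-0.54, adjusted p = 0.00596). The prenyltransferase gene heix had 540 and 511 in the wild-type group, 1080 and 1129 with D493N, 573 and 564 with E728Q and 480 and 477 in control (-0.52, adjusted p = 0.016). CG14275 was thus high only with E728Q and heix only with D493N. The sperm-tail gene Tektin-C, chosen after its values were seen, had 763 and 860 in the wild-type group, 930 and 853 with D493N, 78.5 and 9.75 with E728Q and 1695 and 1444 in control. Its pooled difference of 2.00 was not called (adjusted p = 0.0565), and its low level was found with E728Q only. Left with 1 wild-type array, the adjusted p of Cyp28a5, CG14275 and heix lay between 0.105 and 0.356.

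The array annotation leaves 14 of the 135 called probe sets without a gene, and 4 carry several symbols. The unnamed probe set of largest increase had 4225 and 4036 in the wild-type group, 1005 and 1038 with D493N, 773 and 928 with E728Q and 3091 and 2673 in control. That of largest decrease had 481 and 554 in the wild-type group, 2457 and 3283 with D493N, 2349 and 2285 with E728Q and 2361 and 2005 in control. The log2 differences were 2.23 (SE 0.08, adjusted p = 1.32e-05) and -2.22 (SE 0.11, adjusted p = 5.37e-05), and both were called whichever array was left out. Both were chosen after their values were seen.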

How the data were processed

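Transcripts in adult heads were measured on single-colour Affymetrix arrays, 2 per group. What the authors deposited are linear intensities, 1 for each probe set on each array. They were made with GCOS, the Affymetrix operating software, per the submitters' processing notes. The sources used here do not give its version, background correction or summary method. The number of arrays limits the precision.

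The 183 probe sets of Affymetrix controls did not enter the tests, arrays were quantile normalized, and values were log2 transformed after adding a pseudocount of 17.5 (percentile 25 of the deposited table). Tests covered 11261 of 18769 probe sets, the 60% of highest mean over all 8 arrays, down to a mean of 38.1. A probe set could thus enter through 1 group in which it was high. A model with 1 mean per group over all 8 arrays was fitted in limma 3.58.1 under R 4.3.3, with 4 residual and 4.76 prior degrees of freedom and a prior variance that follows the level. Tests were two-sided, p-values were adjusted by Benjamini-Hochberg over all tested probe sets, and a call is an adjusted p under 0.05. Printed signals are deposited values, and log2 differences are of normalized values plus the pseudocount, which understates differences of low signals. The fit was tested on simulated data.

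Of the probe sets, 13647 carry a single gene symbol in the array annotation. Current names for 13544 of them, and the order of genes on the chromosomes, came from the annotation of Release 6 plus ISO1 MT. The probe set of highest mean stood for a gene. Named genes are, in each direction, the 12 of largest difference called in the pooled comparison and against each mutant, with no overlap of signals, and the 3 of largest difference also called between the mutants but not against both. Further named are eya, so, dac, toy, ey, up to 4 called members of each list and the longest run of called neighbours. The members and lists were chosen with earlier results of these data known. A planned search of promoters for letters of known motifs was not run, since no promoter sequences were used here. Figures were drawn with matplotlib 3.10.9. Alternatives were other pseudocounts, filters, scalings, group models and variance priors, each array left out, each mutant alone, and a replicate block.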

Additional observations from a re-analysis of the deposited data

Results flagged for a closer look

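For 5 named genes called in the pooled comparison, the 2 mutants differed from each other by a test in the same limma fit. Their distances from wild-type EYA were thus unequal. A call between the mutants was a condition for naming Cyp6g1, Ugt35C1, CG14275 and heix, so this count is no result. Over all calls, 8 of 135 probe sets were also called between the mutants. The log2 difference of D493N minus E728Q was -0.98 for Cyp6g1 (adjusted p = 0.00664), -1.03 for Ugt35C1 (adjusted p = 0.00884), -0.81 for CG14275 (adjusted p = 0.00652), 0.90 for heix (adjusted p = 0.00664) and -1.14 for Cyp28a5 (adjusted p = 0.00664).

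Among the 4 mutant arrays, D493N replicate 1 stood apart for the clotting protein gene fon, with a signal of 3269 against 2929 to 2975 on the others. Of the 46 named genes it was the only one with such a gap. Chance gives one in about 1 of 20 groups, so 1 gap in 46 genes is no more than chance gives.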

How the results depend on the processing

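Of 135 calls in the main fit, the count was 128 with a pseudocount of 1, 137 with one of 64, 123 with 40% of probe sets kept, 120 without normalization and 131 against D493N alone. It fell to 86 without a filter on low signals, 67 with only the EYA arrays, 66 with both mutants as 1 group, 56 with 1 prior variance for all levels and 79 against E728Q alone. Leaving out 1 array gave 14 to 585 calls. The cause was not tested, except that a fit without some arrays has fewer degrees of freedom by construction. Samples with the same replicate number did not deviate together (correlations of -0.144 to 0.094 between groups), so the numbers do not pair them, and a replicate block gave 85 calls. Of 41 named genes that were called, 7 stayed called in all 19 alternatives. All kept their direction except Cyp28a5, which had -0.03 against E728Q alone. Of genes that were not called, toy changed sign around 0, with -0.02 without wild-type replicate 1, 0.02 without wild-type replicate 2, 0.00 without D493N replicate 1, 0.01 without E728Q replicate 1 and 0.10 against D493N alone. The values of ey and Tektin-C against D493N alone were 0.04 and -0.05. Signals near the bottom of the scale limit the size of the differences of gol, CG31157, CG34217 and Hsc70-2. Each of these genes passed the filter only through the group in which it was high.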
